A study of Mus musculus with 12 samples.

Results

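The genes described here are 33 p53 targets and apoptosis regulators, measured in VC1 cells, which are cultured lung adenocarcinoma cells of an A/J mouse. They were found by gene symbol among the 30561 genes on the Illumina mouse whole-genome array, where 71 of the 45281 probes belong to them. Of these probes, 66 carried the gene's present symbol, 3 carried Birc4, an older name of Xiap, and 2 carried Isg20l1, an older name of Aen. A probe was kept if its signal exceeded the array's background at a detection p under 0.05 on at least 3 arrays, which left 28 of the 33 genes to test. The other 5 genes, Pmaip1, Perp, Btg2, Bik and Cflar, were detected on 0 of 12 arrays by any of their probes.

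Cells were treated for 6 h with 0.05 µM CDDO-Im, 0.1 µM CDDO-Me, 15 µM DMF or the solvent DMSO. Each group had 3 arrays, on 2 BeadChips that each held all 4 groups. The second BeadChip held only replicate 3 of DMSO and of CDDO-Im, and the first only replicate 1 of CDDO-Me and of DMF. Differences within a BeadChip therefore rest on few arrays. Both CDDO compounds derive from one synthetic triterpenoid acid, with an imidazolide group in CDDO-Im and a methyl ester in CDDO-Me, and DMF is dimethyl fumarate. All 3 are electrophiles that the title describes as NRF2 activators, NRF2 being a regulator of antioxidant genes. Doses differed between compounds, so their values stand side by side without a test between compounds, and all 3 comparisons share the same DMSO arrays. The labels do not say whether the 3 samples of a group were separate cultures, so each p-value covers only sample-to-sample spread, possibly technical. They also give no p53 genotype for the line and no count of dead cells, and in bulk RNA fewer cells of a kind cannot be told apart from less RNA per cell.

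The p53 protein is a transcription factor that is kept scarce by the ubiquitin ligase MDM2, itself a p53 target, and that accumulates after DNA damage and other stresses. Its targets divide into genes that stop the cell cycle or aid repair and genes that promote death. In the mitochondrial death pathway, BH3-only proteins relieve or trigger BAX and BAK1, while BCL2, BCL-XL and MCL1 hold these effectors back, and death receptors such as FAS reach caspase-8 by a separate route. Several arrest genes, among them Cdkn1a, Gadd45a, Gadd45b, Plk2 and Plk3, are also induced by other stress and growth signals without p53.

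The region around the transcription start is shown for the 5 arrest genes that were higher with CDDO-Im in the data below, because a p53 site there would be one feature for them to share. Each window holds 250 bases before and 50 after the annotated start, 5′ to 3′ on the gene's strand, from RefSeq on GRCm38.p6. Capitals mark matches, on either strand, to the CRE or to the p53 half-site, the decamer of which a full site holds a pair. Plk3 lies at chr4:117133914-117134213 on the minus strand and Plk2 at chr13:110394794-110395093 on the plus strand. Gadd45a lies at chr6:67037358-67037657 on the minus strand, Mdm2 at chr10:117710709-117711008 on the minus strand, and the more upstream Cdkn1a start at chr17:29090729-29091028 on the plus strand.
Plk3: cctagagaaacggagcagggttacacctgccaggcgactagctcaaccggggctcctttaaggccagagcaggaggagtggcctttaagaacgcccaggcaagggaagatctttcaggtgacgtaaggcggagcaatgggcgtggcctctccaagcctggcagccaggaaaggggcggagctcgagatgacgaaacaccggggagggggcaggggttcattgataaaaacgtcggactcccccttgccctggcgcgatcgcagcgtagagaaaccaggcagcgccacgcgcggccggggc
Plk2: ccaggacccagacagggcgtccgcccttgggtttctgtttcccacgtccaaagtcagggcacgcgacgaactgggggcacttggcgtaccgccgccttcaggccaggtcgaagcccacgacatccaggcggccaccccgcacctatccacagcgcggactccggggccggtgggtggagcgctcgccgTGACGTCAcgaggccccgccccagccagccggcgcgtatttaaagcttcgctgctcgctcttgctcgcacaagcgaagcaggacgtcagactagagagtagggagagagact
Gadd45a: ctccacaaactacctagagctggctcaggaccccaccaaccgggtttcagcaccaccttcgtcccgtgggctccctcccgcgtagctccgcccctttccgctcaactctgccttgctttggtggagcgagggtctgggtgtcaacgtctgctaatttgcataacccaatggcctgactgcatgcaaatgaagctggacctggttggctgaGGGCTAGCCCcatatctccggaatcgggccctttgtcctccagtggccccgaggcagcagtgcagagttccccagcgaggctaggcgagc
Mdm2: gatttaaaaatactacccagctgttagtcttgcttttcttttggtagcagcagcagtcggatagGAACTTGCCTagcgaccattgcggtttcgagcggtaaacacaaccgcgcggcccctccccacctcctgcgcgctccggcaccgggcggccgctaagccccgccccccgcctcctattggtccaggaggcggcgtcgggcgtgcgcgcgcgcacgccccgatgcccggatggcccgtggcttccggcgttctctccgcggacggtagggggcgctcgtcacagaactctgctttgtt
Cdkn1a: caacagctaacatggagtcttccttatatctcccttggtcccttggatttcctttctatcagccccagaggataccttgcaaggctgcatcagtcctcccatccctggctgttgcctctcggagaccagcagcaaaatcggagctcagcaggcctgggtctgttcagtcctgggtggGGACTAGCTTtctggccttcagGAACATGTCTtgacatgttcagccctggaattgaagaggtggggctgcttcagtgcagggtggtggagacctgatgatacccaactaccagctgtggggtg

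Counted from the annotated start, the Plk2 match begins at -62 and is the palindrome TGACGTCA, the site read by CREB and ATF factors. The Gadd45a decamer begins at -40 and the Mdm2 decamer at -186, while the Cdkn1a window holds decamers at -73 and -51. In the Plk3 window none of the 7 motifs searched was found. The other motifs were the antioxidant response element core TGACNNNGC, the AP-1 site TGANTCA, the ATF4-C/EBP site TGATGNAA, the E-box CACGTG and the CArG box. Both strands were read, and TGACNNNGC, TGANTCA and TGACGTCA can overlap.

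Of the 33 genes, 27 had such a window, 41 windows in all because some genes have several starts. The p53 half-site was present in 11 of the 41, or 26.8%, against 8.36% of the 32851 windows of all genes. It occurred near 10 of the genes, which were Aen, Bax, Birc2, Bmf, Ccng1, Cdkn1a, Ei24, Gadd45a, Mdm2 and Sesn1. Many of the 33 genes were listed because they are known p53 targets, so this share is no result about the treatments. The antioxidant response element core was present in 7.32% of the members' windows, near Bcl2l1, Xiap and a second start of Cdkn1a, against 12.4% of all windows. TGACGTCA was in 7.32%, near Birc2, Btg2 and Plk2, against 1.79% of all windows. A match is a stretch of letters and not a measured binding site, and these windows leave out the introns and distal regions where many p53 sites lie.

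DMSO replicate 1 and CDDO-Im replicate 2, both on the first BeadChip, stood apart from the other 10 arrays. Their mean raw intensities were 457.2 for CDDO-Im replicate 2 and 439.6 for DMSO replicate 1, against 551.6 to 683.7 on the others. Their median correlations with the 10 other arrays were 0.936 and 0.916 in the same order, while every pair among those 10 reached at least 0.988. Of the 28 tested genes, 46.4% on CDDO-Im replicate 2 and 57.1% on DMSO replicate 1 lay more than 0.5 log2 units from the mean of the rest of their group, against 50.8% and 55.9% of all 13280 genes tested. The median standard error of a gene was 0.242 to 0.25 log2 units with 12 arrays and 0.0963 to 0.105 with the 10. Counts over the 28 genes are therefore given for 12 arrays, for 11 without DMSO replicate 1, and for 10 without both. Lists by role and single genes are given mainly for 12 and for 10. As a check of the treatments, the NRF2 target Nqo1 rose with all 3 compounds, by 1.59, 1.80 and 1.5 log2 units with CDDO-Im, CDDO-Me and DMF in the fit of 12 arrays (limma adjusted p = 0.00651, 0.00493 and 0.0303).

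The cells carried epithelial markers, since Cdh1, Krt8, Krt18, Krt7, Krt19 and the lung factor Nkx2-1 were detected on all 12 arrays, 6 of 13 such markers. Epcam, Cldn4, Sftpc and Sftpa1 were detected on none. In the 10 arrays, 1 of 7 tested epithelial markers was called lower by limma with each compound. Of all genes, 5%, 5.54% and 4.26% were called lower there with CDDO-Im, CDDO-Me and DMF. The summed raw intensity of the epithelial list was 36320 to 46680 with CDDO-Im, 47310 to 52750 with CDDO-Me, 48310 to 54530 with DMF and 38620 to 50400 with DMSO. Of 7 leukocyte markers 6 were detected on no array, Ptprc among them, as were 1 of 4 endothelial markers, Pecam1, and 4 of 7 fibroblast markers. The leukocyte marker Cd68 and the endothelial marker Kdr were each detected on 11 of 12 arrays, at mean log2 intensities of 6.34 and 5.74. The endothelial marker Tek was detected on 3. The fibroblast marker Pdgfra, detected on 7 of 12 arrays, was called higher with CDDO-Im and CDDO-Me (limma adjusted p = 0.00123 and 0.0114, 12 arrays). It read 6.06 to 6.96 with CDDO-Im, 5.72 to 6.09 with CDDO-Me and 4.63 to 4.79 with DMSO, where it lay at the level of undetected probes, so no fold is given, and its part in the results below was not tested.

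With all 12 arrays, 1 of the 28 genes passed an adjusted p of 0.05 in limma with CDDO-Im, against 1.81% of all genes tested, and that gene was Plk3. With CDDO-Me and with DMF, limma called 0 of 28, against 1.42% and 0.346% of all genes. At an unadjusted p under 0.05 the counts were 3, 5 and 4 for CDDO-Im, CDDO-Me and DMF, or 10.7%, 17.9% and 14.3% of the 28 against 12.7%, 8.07% and 7.07% of all genes. Without DMSO replicate 1, the count was 3 with CDDO-Im and 3 with CDDO-Me, against 2.88% and 2.27% of all genes, and in both cases Plk3 and Plk2 rose and Bcl2 fell. DMF stayed at 0 of 28 without that array in limma, against 0.813% of all genes. Unadjusted counts in those 11 arrays were 7, 5 and 4 for CDDO-Im, CDDO-Me and DMF, or 25%, 17.9% and 14.3%, against 12.3%, 9.2% and 7.99% of all genes.

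With the 10 arrays, 8 of 28 genes changed with CDDO-Im, 9 with CDDO-Me and 4 with DMF, or 28.6%, 32.1% and 14.3%. The shares of all genes called there were 10.8%, 11.1% and 8.42%. Plk3, Plk2, Gadd45a, Cdkn1a and Mdm2 rose with CDDO-Im, while Bcl2, Bmf and Bad fell, where 5.75% of all genes rose and 5% fell. Plk3, Plk2, Gadd45a and Gadd45b rose with CDDO-Me, while Bcl2, Bmf, Bad, Bcl2l11 and Sesn1 fell, where 5.55% of all genes rose and 5.54% fell. With DMF, Plk3 and Gadd45a rose, while Bmf and Gadd45b fell, where 4.16% of all genes rose and 4.26% fell. At an unadjusted p under 0.05 the counts were 12, 13 and 11 of 28, or 42.9%, 46.4% and 39.3%, against 24.6%, 24.8% and 25.1% of all genes. The median log2 difference of the 28 genes was 0.04, 0.01 and 0.06 for CDDO-Im, CDDO-Me and DMF, against -0.016, -0.019 and -0.021 for all genes tested. Of the 10-array calls, only Plk3, Plk2 and Bcl2 with CDDO-Im and CDDO-Me were also made in the 11 arrays. All groups share 1 estimate of a gene's spread, so leaving out CDDO-Im replicate 2 also changed the standard errors for CDDO-Me and DMF. Gadd45a with CDDO-Me, for example, had 0.61 ± 0.289 in the 11 arrays (limma adjusted p = 0.613). In the 10 it had 0.63 ± 0.089 (limma adjusted p = 0.00283).

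**Figure D1:**
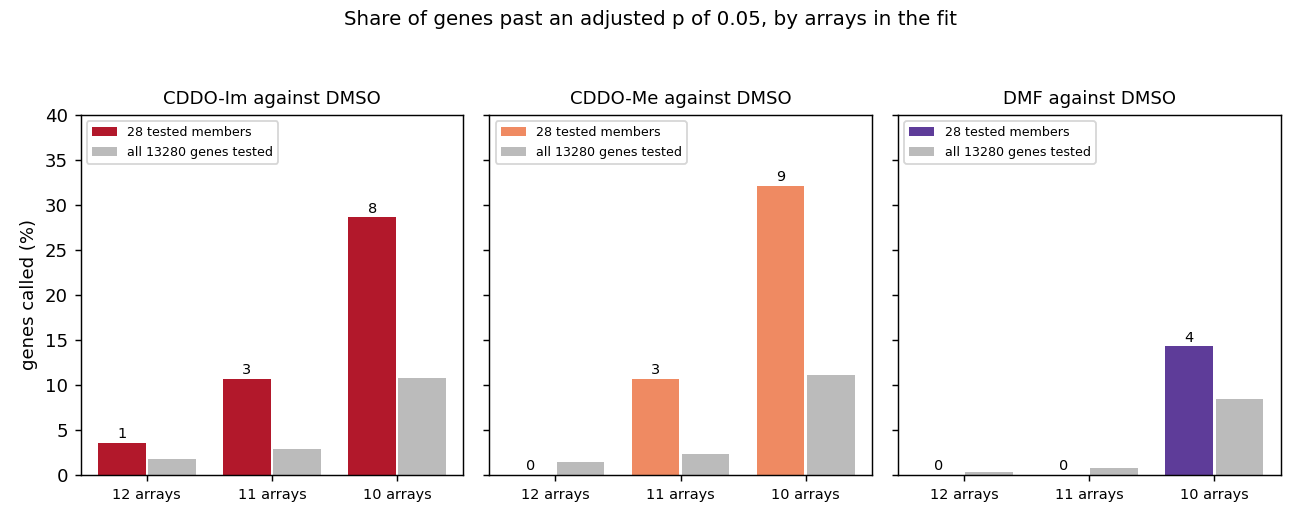
Percentage of genes with a limma adjusted p under 0.05 (vertical axis, %) among the 28 tested p53 and apoptosis genes (coloured bars, with the number of genes above) and among all 13280 genes tested (grey), for fits of 12, 11 and 10 arrays. The members' counts of these 3 fits are 8 with CDDO-Im, 9 with CDDO-Me and 4 with DMF where both arrays that stood apart are left out.

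The arrest, repair and feedback targets of p53 held most of the rises. Of 9 tested, 5 changed with CDDO-Im (5 higher), 5 with CDDO-Me (4 higher, Sesn1 lower) and 3 with DMF (2 higher, Gadd45b lower) in the 10 arrays, against 10.8%, 11.1% and 8.42% of all genes. Their median log2 differences there were 0.42, 0.31 and 0.24, where the medians of all genes lay within 0.021 of 0. With 12 arrays the limma counts were 1, 0 and 0, against 1.81%, 1.42% and 0.346% of all genes, and the medians were 0.37, 0.16 and 0.19. There 3, 3 and 2 had an unadjusted p under 0.05, against 12.7%, 8.07% and 7.07% of all genes.

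Plk3 encodes a polo-like kinase induced by growth factors and stress that acts in DNA damage checkpoints. On the scale of normalized log2 intensity it read 9.89, 9.88 and 9.97 with CDDO-Im, 9.39, 9.50 and 9.58 with CDDO-Me, 9.25, 9.02 and 9.14 with DMF, and 9.13, 8.62 and 8.65 with DMSO. All CDDO-Im and CDDO-Me arrays lay above all DMSO arrays, and the DMF arrays overlapped with DMSO only through DMSO replicate 1, the highest of its group. The rise with CDDO-Im was 1.11 ± 0.165 log2 units (SE) in 12 arrays, or 2.16-fold (limma adjusted p = 0.00733), and 1.29 ± 0.098 in 10, or 2.45-fold (adjusted p = 0.000113). It measured 1.01 within the first BeadChip, which held both arrays that stood apart. Within the second it measured 1.32, from replicate 3 of each group alone.

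With CDDO-Me, the Plk3 difference was 0.70 ± 0.170 in 12 arrays (limma adjusted p = 0.121) and 0.85 ± 0.090 in 10 (adjusted p = 0.000606). With DMF it was 0.35 ± 0.170 in 12 (limma adjusted p = 0.661) and 0.50 ± 0.090 in 10 (adjusted p = 0.0145). Every DMF and triterpenoid array was above both DMSO arrays kept in the fit of 10. The CDDO-Im call in 12 arrays did not survive the loss of either DMSO replicate 3 (limma adjusted p = 0.0587) or CDDO-Im replicate 3 (adjusted p = 0.0639), median scaling in place of quantile normalization (0.133) or a fit of these 2 groups alone (0.663).

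Plk2 encodes a related kinase that p53 and serum both induce. It read 8.63, 8.52 and 8.56 with CDDO-Im, 8.61, 8.64 and 8.77 with CDDO-Me, 7.94, 8.12 and 8.02 with DMF, and 6.76, 7.89 and 7.68 with DMSO. All 9 treated arrays exceeded all 3 DMSO arrays, by the least margin with DMF, and DMSO replicate 1 was the lowest array. With 12 arrays, the differences of 1.13 ± 0.248 for CDDO-Im and 1.18 ± 0.255 for CDDO-Me missed the threshold (limma adjusted p = 0.056 and 0.0657). With 10 arrays Plk2 rose by 0.81 ± 0.102 and 0.89 ± 0.094, or 1.75-fold and 1.85-fold (limma adjusted p = 0.00168 and 0.000614), and with DMF the difference was 0.24 ± 0.094 (adjusted p = 0.162). Within the first and second BeadChip the CDDO-Im differences were 1.25 and 0.88, and the CDDO-Me differences 1.29 and 1.02.

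Gadd45a encodes a stress sensor that binds p38-pathway kinases, PCNA and p21. It read 9.89, 8.81 and 9.76 with CDDO-Im, 9.96, 9.89 and 9.93 with CDDO-Me, 10.17, 9.86 and 9.99 with DMF, and 8.66, 9.26 and 9.36 with DMSO. CDDO-Im replicate 2 was the low array of its group and fell inside the DMSO range, while all CDDO-Me and DMF arrays lay above DMSO. Gadd45a rose in the 10 arrays by 0.51 ± 0.097 with CDDO-Im, 0.63 ± 0.089 with CDDO-Me and 0.71 ± 0.089 with DMF (limma adjusted p = 0.0128, 0.00283 and 0.00294). In 12 arrays the differences were 0.39, 0.79 and 0.87, each short of the threshold (limma adjusted p = 0.536, 0.459 and 0.523). Its second kept probe gave 0.43, 0.56 and 0.54 for the 3 compounds in the 10 arrays.

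Gadd45b, a relative of Gadd45a that is also induced by NF-κB and TGF-β signals, moved in opposite directions with CDDO-Me and DMF. It read 6.70, 7.65 and 7.03 with CDDO-Im, 7.27, 7.13 and 7.20 with CDDO-Me, 6.12, 6.24 and 6.42 with DMF, and 8.17, 6.67 and 6.81 with DMSO. All DMF arrays lay below all DMSO arrays, and DMSO replicate 1 was the highest of the 12. Gadd45b rose in the 10 arrays by 0.44 ± 0.108 with CDDO-Me (limma adjusted p = 0.035) and fell by 0.50 ± 0.108 with DMF (adjusted p = 0.0277), while with CDDO-Im the difference was 0.12 ± 0.117 (adjusted p = 0.579). In 12 arrays the values were 0.04 with CDDO-Me and -0.90 with DMF, neither called (limma adjusted p = 0.973 and 0.661), and the CDDO-Me value was -0.15 within the first BeadChip and 0.36 within the second.

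Cdkn1a encodes p21, the inhibitor of cyclin-dependent kinases through which p53 arrests the cell cycle. It read 10.75, 11.43 and 10.73 with CDDO-Im, 10.66, 10.66 and 10.55 with CDDO-Me, 10.66, 10.69 and 10.64 with DMF, and 11.18, 10.17 and 10.45 with DMSO. Both arrays that stood apart were the highest of their groups, and DMSO replicate 1 exceeded every array except CDDO-Im replicate 2. Without those 2 arrays, every treated array was above both DMSO arrays, and Cdkn1a rose by 0.43 ± 0.098 with CDDO-Im, or 1.34-fold (limma adjusted p = 0.0283). The differences with CDDO-Me and DMF were 0.31 ± 0.090 and 0.35 ± 0.090 and missed the threshold (limma adjusted p = 0.0693 and 0.0532). With 12 arrays they were 0.37, 0.08 and 0.12 (limma adjusted p = 0.526, 0.93 and 0.871), and 2 further Cdkn1a probes gave 0.50 and 0.60 with CDDO-Im in the 10 arrays. With DMF these probes gave 0.355 and 0.387 there, and the first passed (limma adjusted p = 0.0479 and 0.0784). With CDDO-Me they gave 0.24 and 0.32, and neither passed (limma adjusted p = 0.129 and 0.124).

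Mdm2, the feedback inhibitor of p53, read 11.64, 12.26 and 11.61 with CDDO-Im, 11.50, 11.29 and 11.41 with CDDO-Me, 11.48, 11.40 and 11.40 with DMF, and 11.51, 11.26 and 11.16 with DMSO. All CDDO-Im arrays lay above all DMSO arrays, and the CDDO-Me and DMF arrays lay between DMSO replicate 1 and the other DMSO arrays. In the 10 arrays Mdm2 rose by 0.42 ± 0.073 with CDDO-Im (limma adjusted p = 0.00856), and a second probe gave 0.48. The differences were 0.21 ± 0.067 with CDDO-Me and 0.24 ± 0.067 with DMF (limma adjusted p = 0.0909 and 0.069). When those 10 arrays were processed again from the raw intensities, Mdm2 also passed with CDDO-Me. With arrays weighted by estimated quality, Mdm2 passed with all 3 compounds and Cdkn1a with CDDO-Im and DMF. There 3633, 3124 and 3012 of all 13280 genes passed with CDDO-Im, CDDO-Me and DMF. With 12 arrays the CDDO-Im difference was 0.53 ± 0.175 (limma adjusted p = 0.251), and it was 0.57 and 0.45 within the BeadChips.

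Sesn1 encodes a sestrin that restrains mTORC1 and was the arrest gene called lower with CDDO-Me. It read 8.31, 8.64 and 8.47 with CDDO-Im, 8.18, 8.15 and 8.13 with CDDO-Me, 8.32, 8.40 and 8.42 with DMF, and 7.83, 8.45 and 8.48 with DMSO. The CDDO-Me arrays lay below every array of the other groups except DMSO replicate 1, which was the lowest of all. Sesn1 fell in the 10 arrays by 0.32 ± 0.067 with CDDO-Me (limma adjusted p = 0.0198), and its second probe gave -0.23. In 12 arrays the difference was -0.13 ± 0.190 (limma adjusted p = 0.811), with 0.04 within the first BeadChip and -0.34 within the second.

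The other arrest genes passed the test in no comparison. Ccng1, a cyclin that is a classical p53 target, had 10-array differences of -0.01 with CDDO-Im, -0.09 with CDDO-Me and -0.08 with DMF, with 95% intervals of -0.17 to 0.16, -0.24 to 0.06 and -0.23 to 0.06. Zmat3, an RNA-binding target of p53, had 0.07, 0.10 and 0.04, with intervals that reached at most 0.31. Btg2, an antiproliferative p53 target, was detected on no array.

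**Figure D2:**
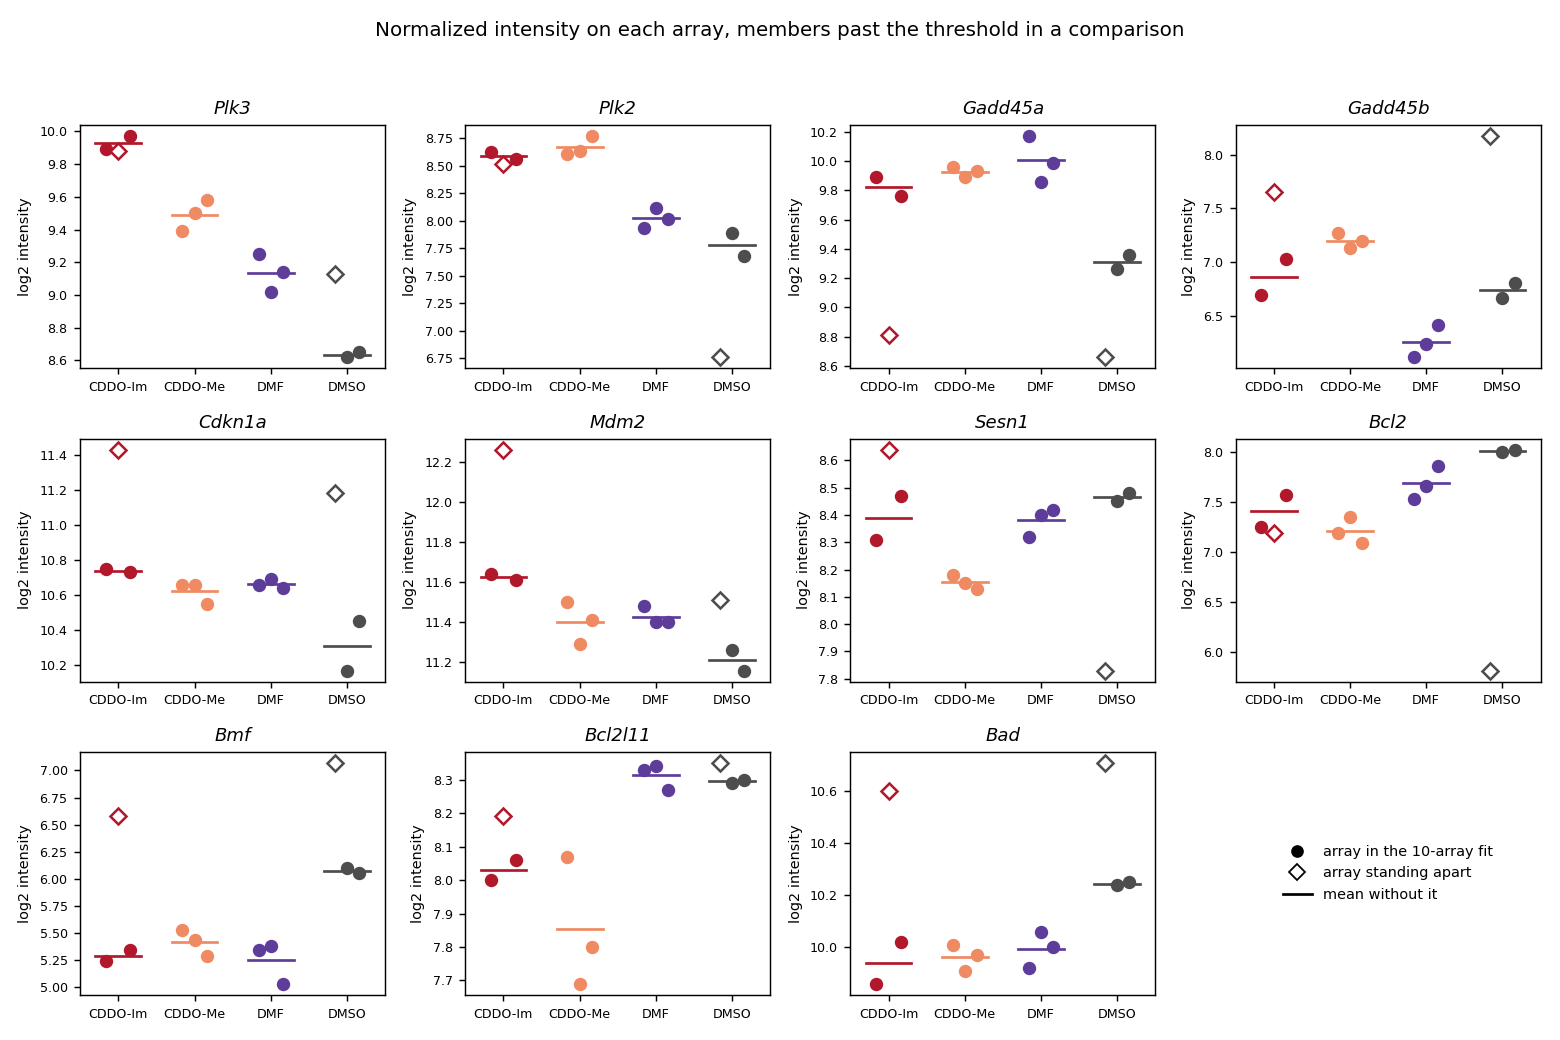
Normalized log2 intensity (vertical axis) of each of the 11 genes called in at least 1 comparison, on each of the 3 arrays per group. Open diamonds are DMSO replicate 1 and CDDO-Im replicate 2 and lines are group means without them. The diamonds of Cdkn1a, Gadd45b and Bad lie at the top of their groups, and the DMSO diamond of Bcl2 lies below all other arrays.

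By their brightest kept probe, the death targets of p53 passed in none of the unweighted fits of 12, 11 and 10 arrays. Of 8 tested, limma called 0 with each compound in each of these fits, against 10.8%, 11.1% and 8.42% of all genes in the 10. At an unadjusted p under 0.05 the 10-array counts were 1, 1 and 2 for CDDO-Im, CDDO-Me and DMF, against 24.6%, 24.8% and 25.1% of all genes. The 12-array counts were 0, 0 and 1, against 12.7%, 8.07% and 7.07%. Their 10-array median log2 differences were 0.03, -0.05 and 0.14. With arrays weighted by estimated quality, Aen passed with all 3 compounds and Bbc3 with CDDO-Im and DMF. That fit called 3633, 3124 and 3012 of all 13280 genes for CDDO-Im, CDDO-Me and DMF.

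Aen, a nuclease that p53 induces, had the values nearest to a call, 0.34, 0.27 and 0.34 with CDDO-Im, CDDO-Me and DMF in the 10 arrays, with 95% intervals of 0.10 to 0.59, 0.04 to 0.49 and 0.11 to 0.57. Bbc3 encodes PUMA, the BH3-only protein that p53 induces to trigger BAX. It had 0.12 with CDDO-Im, -0.09 with CDDO-Me and 0.28 with DMF, with intervals of -0.20 to 0.44, -0.38 to 0.21 and -0.01 to 0.58. Trp53inp1, a stress-induced p53 cofactor, had 0.23, 0.24 and 0.27. Phlda3, an inhibitor of AKT, and Ei24, a membrane protein induced by p53, lay between -0.13 and 0.07.

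Among the pro-survival genes, Bcl2 was the only one of 3 tested that passed in the fits of 12, 11 or 10 arrays. In the 10 arrays Bcl2 passed with CDDO-Im and CDDO-Me, where 10.8% and 11.1% of all genes were called. It read 7.25, 7.19 and 7.57 with CDDO-Im, 7.19, 7.35 and 7.09 with CDDO-Me, 7.53, 7.66 and 7.86 with DMF, and 5.82, 8 and 8.02 with DMSO. DMSO replicate 1 lay below all other arrays by more than 1 log2 unit, and the other DMSO arrays lay above all others. Bcl2 fell in the 10 arrays by 0.60 ± 0.123 with CDDO-Im and by 0.82 ± 0.113 with CDDO-Me, to 0.661 and 0.566 of the DMSO level (limma adjusted p = 0.0187 and 0.00258). With DMF the difference was -0.35 ± 0.113 (limma adjusted p = 0.101).

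DMSO replicate 1 decided the Bcl2 result. Without that array alone, Bcl2 fell by 0.64 with CDDO-Im and by 0.82 with CDDO-Me (limma adjusted p = 0.0455 and 0.0167), while in 12 arrays the differences were 0.06 ± 0.456 and -0.21 ± 0.470 (adjusted p = 0.954 and 0.884). Within the BeadChip that carried DMSO replicate 1 they were 0.31 and 0.28, and within the other -0.45 and -0.80. The probes also disagreed, since a second Bcl2 probe, designed to another transcript and detected on all 12 arrays, gave 0.16 with CDDO-Im and -0.26 with CDDO-Me in the 10 arrays.

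Bcl2l1, which encodes BCL-XL, had 10-array differences of 0.16, -0.22 and 0.19 with CDDO-Im, CDDO-Me and DMF, and 95% intervals of -0.08 to 0.40, -0.45 to 0.00 and -0.03 to 0.42. Mcl1, a short-lived guardian of the mitochondrial membrane, had 0.09, 0.00 and 0.09, and no interval exceeded 0.24. The effectors Bax and Bak1, which open that membrane, lay between -0.13 and 0.12 in the 10 arrays. Limma called 0 of 2 with each compound, against 10.8%, 11.1% and 8.42% of all genes. At an unadjusted p under 0.05 the count was 0 of 2 with each, against 24.6%, 24.8% and 25.1% of all genes. In 12 arrays both lay between -0.57 and -0.28 with all 3 compounds. DMSO replicate 1 had the highest Bak1 and Bax of the 12 arrays, 9.39 and 12.65, against 7.62 and 11.57 on DMSO replicate 2 and 7.81 and 11.94 on DMSO replicate 3.

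In the unweighted fit of 10 arrays, the called changes among BH3-only genes, whose products promote death, were falls. Bbc3, also a BH3-only gene, passed with CDDO-Im and DMF in the weighted fit described above. Of 5 tested in the 10 arrays, 2 fell with CDDO-Im, 3 with CDDO-Me and 1 with DMF, and 0 rose, where 5%, 5.54% and 4.26% of all genes were called lower. Their median log2 differences were -0.26, -0.29 and 0. In 12 arrays limma called 0 of 5 with each compound, against 1.81%, 1.42% and 0.346% of all genes. There 0, 2 and 1 had an unadjusted p under 0.05, against 12.7%, 8.07% and 7.07% of all genes.

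Bmf encodes a BH3-only protein tied to the cytoskeleton and to loss of attachment. It read 5.24, 6.58 and 5.34 with CDDO-Im, 5.53, 5.43 and 5.29 with CDDO-Me, 5.34, 5.38 and 5.03 with DMF, and 7.07, 6.10 and 6.05 with DMSO. CDDO-Im replicate 2 was the 1 treated array inside the DMSO range. Bmf fell in the 10 arrays by 0.79 ± 0.124, 0.65 ± 0.114 and 0.82 ± 0.114 with CDDO-Im, CDDO-Me and DMF, to 0.579, 0.637 and 0.568 of the DMSO level (limma adjusted p = 0.00541, 0.00842 and 0.00471).

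The Bmf signal lay near background. Its probe was detected on 3 of 3 CDDO-Im, 2 of 3 CDDO-Me, 1 of 3 DMF and 3 of 3 DMSO arrays, so these folds may understate the difference. In 12 arrays the differences were -0.69, -0.88 and -1.04 (limma adjusted p = 0.429, 0.54 and 0.541), and they had the same sign within each BeadChip, -0.68 to -1.25 in the first and -0.69 to -0.84 in the second.

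Bad encodes a BH3-only protein that growth factor kinases phosphorylate and hold inactive. It read 9.86, 10.60 and 10.02 with CDDO-Im, 10.01, 9.91 and 9.97 with CDDO-Me, 9.92, 10.06 and 10.00 with DMF, and 10.71, 10.24 and 10.25 with DMSO. The arrays that stood apart were the highest of their groups, and the 8 other treated arrays lay below all DMSO arrays. Bad fell in the 10 arrays by 0.31 ± 0.081 with CDDO-Im and by 0.29 ± 0.075 with CDDO-Me (limma adjusted p = 0.0487 and 0.0439), while DMF had -0.26 ± 0.075 (adjusted p = 0.0718). Both calls lay near the threshold and were lost in a 10-array fit of every kept probe (limma adjusted p = 0.0616 and 0.0558). When those 10 arrays were processed again from the raw intensities, Bad passed with CDDO-Me but not with CDDO-Im. The 12-array values were -0.24, -0.40 and -0.38 (limma adjusted p = 0.599, 0.719 and 0.661).

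Bcl2l11 encodes BIM, a BH3-only protein whose loss protects many cells from growth factor withdrawal. It read 8, 8.19 and 8.06 with CDDO-Im, 8.07, 7.69 and 7.80 with CDDO-Me, 8.33, 8.34 and 8.27 with DMF, and 8.35, 8.29 and 8.30 with DMSO. All triterpenoid arrays lay below all DMSO arrays, with CDDO-Me replicate 1 the highest of its group, and the DMF arrays overlapped DMSO. With CDDO-Me, Bcl2l11 fell by 0.43 ± 0.099 in the 10 arrays (limma adjusted p = 0.0281) and had -0.43 ± 0.139 in the 12 (adjusted p = 0.339), with its 2 further probes at -0.46 and -0.14 in the 10. Neither further probe passed (limma adjusted p = 0.632 and 0.621), and the first was detected on 3 of 12 arrays and on 0 of 3 with CDDO-Me. With CDDO-Im the 10-array difference was -0.26 ± 0.108 (limma adjusted p = 0.177), and with DMF it was 0.03 ± 0.099 (adjusted p = 0.885). Bid, which caspase-8 cleaves, had 0.21, 0.18 and 0.00 and was not called.

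**Figure D3:**
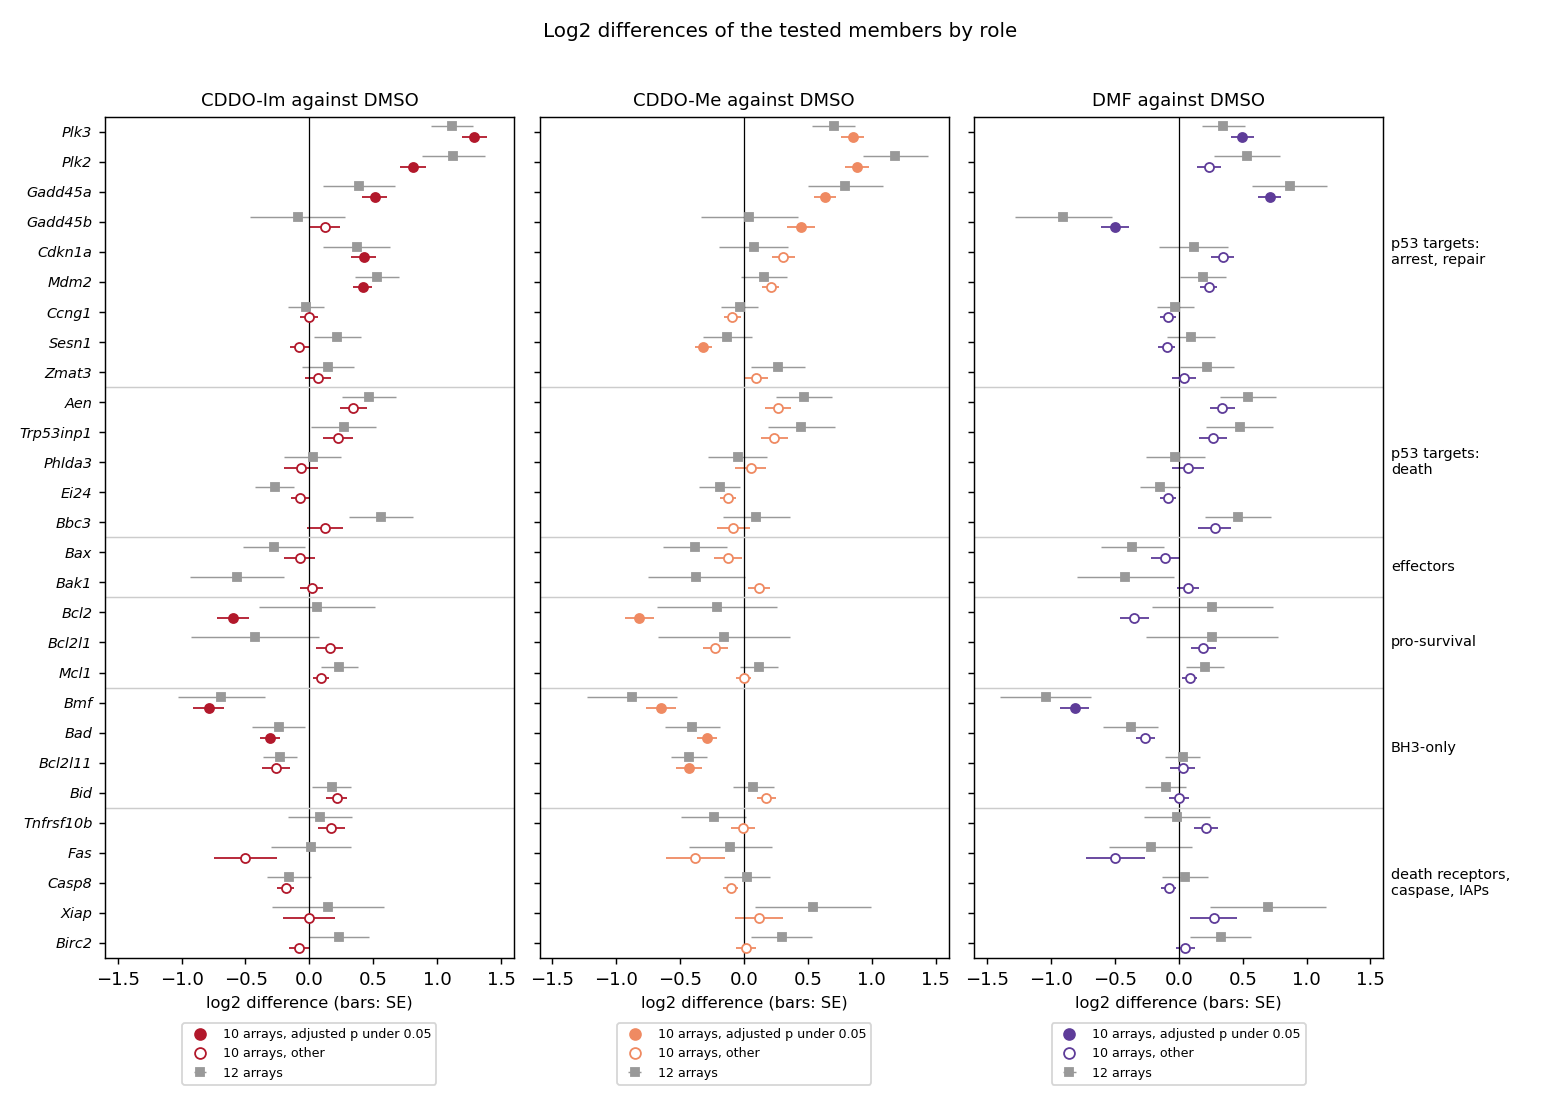
Log2 difference from DMSO (horizontal axis, bars are SE) of the 28 tested genes, ordered by role, for CDDO-Im, CDDO-Me and DMF. Grey squares are the fit of 12 arrays and circles the fit of 10, filled where the limma adjusted p is under 0.05. The filled circles on the positive side are arrest and feedback genes, those on the negative side are Bcl2, Bmf, Bad, Bcl2l11, Sesn1 and, with DMF, Gadd45b, and the bars of Bcl2 with 12 arrays span 0.

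The death receptor genes and their regulators passed the test in none of the fits of 12, 11 and 10 arrays. Of 5 tested, limma called 0 with each compound, and at an unadjusted p under 0.05 the 10-array counts were 1, 0 and 0 for CDDO-Im, CDDO-Me and DMF. The shares of all genes in the 10 arrays were 10.8%, 11.1% and 8.42% called and 24.6%, 24.8% and 25.1% under the unadjusted threshold. With arrays weighted by quality, Casp8 passed with CDDO-Im and Xiap with DMF, where 3633 and 3012 of all 13280 genes passed. Tnfrsf10b, the single TRAIL death receptor of mice, had 10-array differences of 0.17, -0.01 and 0.21, with intervals of -0.06 to 0.41, -0.22 to 0.21 and 0.00 to 0.43. Fas had -0.50, -0.38 and -0.50, with intervals of -1.07 to 0.07, -0.91 to 0.15 and -1.02 to 0.03, and its probe was detected on 6 of 12 arrays, so its level was close to background.

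Casp8, the protease that death receptors activate, had -0.19, -0.10 and -0.08 with CDDO-Im, CDDO-Me and DMF. Xiap, an inhibitor of caspases, had 0.00, 0.12 and 0.27 with intervals between -0.47 and 0.70, and Birc2, the ligase cIAP1, had -0.08, 0.01 and 0.05. Cflar, whose product FLIP blocks caspase-8, was not detected on any array, nor were the BH3-only genes Pmaip1 and Bik or the p53 target Perp. Their levels under treatment could not be read from these arrays.

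For 17 tested genes the brightest kept probe passed in neither fit. Their 10-array differences by that probe ran from -0.50 to 0.34 with CDDO-Im, -0.38 to 0.27 with CDDO-Me and -0.50 to 0.34 with DMF. Their lowest limma adjusted p-values were 0.0861, 0.139 and 0.0739. A value that misses the threshold does not show that a gene was unchanged. At most 3 arrays per group, and fewer for DMSO and CDDO-Im in the 10-array fit, limit what can be seen.

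Trp53 itself, which encodes p53, had differences of -0.83, -0.50 and -0.69 with CDDO-Im, CDDO-Me and DMF in 12 arrays and -0.25, -0.13 and -0.31 in 10, and passed in neither (limma adjusted p = 0.32, 0.719 and 0.661 in 12, and 0.206, 0.495 and 0.0978 in 10). Its mRNA does not report the level of the protein, which is set mainly by degradation. Mdm4, a partner of MDM2, had 0.04, 0.01 and 0.28 in the 10 arrays and was not called. Sesn2, a sestrin induced by p53, NRF2 and ATF4, had 0.42, 0.49 and 0.45 and was not called (limma adjusted p = 0.166, 0.0868 and 0.114).

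A list of 39 other p53 pathway genes gave 31 to test. In the 10 arrays, 3 passed with CDDO-Im, 5 with CDDO-Me and 3 with DMF, or 9.68%, 16.1% and 9.68% against 10.8%, 11.1% and 8.42% of all genes, and in 12 arrays limma called 0 with each. At an unadjusted p under 0.05 the 12-array counts were 5, 3 and 2, against 12.7%, 8.07% and 7.07% of all genes. Abhd4, a lipase gene, rose by 0.86, 0.83 and 0.53 with CDDO-Im, CDDO-Me and DMF (limma adjusted p = 0.000277, 0.000178 and 0.0038, 10 arrays).

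Gdf15, a secreted stress hormone induced by p53 and by ATF4, rose by 0.76 with CDDO-Im and 0.46 with DMF (limma adjusted p = 0.00225 and 0.0222), while CDDO-Me had 0.18 (adjusted p = 0.287), in the 10 arrays. It read 10.93, 11.27 and 10.87 with CDDO-Im, 10.30, 10.41 and 10.27 with CDDO-Me, 10.71, 10.53 and 10.57 with DMF, and 10.50, 10.05 and 10.25 with DMSO, so all CDDO-Im and DMF arrays lay above all DMSO arrays. Dcxr, a carbonyl reductase, fell by 0.45, 0.46 and 0.46 with the 3 compounds (limma adjusted p = 0.0419, 0.0263 and 0.0333). With CDDO-Me, the adenylate kinase gene Ak1 rose by 0.56 (limma adjusted p = 0.0478), Hexim1, an inhibitor of transcription elongation, fell by 0.38 (adjusted p = 0.0196), and Apaf1, the scaffold of the apoptosome, fell by 0.37 (adjusted p = 0.0061). Hexim1 and Apaf1 are named to complete the count of 5, after their values were seen.

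Of 42 other apoptosis genes, 40 were on the array and 29 could be tested. In the 10 arrays 3 passed with CDDO-Im, all lower, 5 with CDDO-Me, all lower, and 2 with DMF, 1 of them higher, or 10.3%, 17.2% and 6.9% against 10.8%, 11.1% and 8.42% of all genes. In 12 arrays limma called 0 with each compound, with 6, 4 and 3 at an unadjusted p under 0.05, where 12.7%, 8.07% and 7.07% of all genes lay under it. Tnfrsf21, the death receptor DR6, fell by 0.45 with CDDO-Im and by 0.50 with CDDO-Me (limma adjusted p = 0.0103 and 0.00369, 10 arrays).

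The adaptor gene Fadd fell by 0.29 with CDDO-Im (limma adjusted p = 0.031, 10 arrays). With CDDO-Me the TNF receptor gene Tnfrsf1b fell by 0.41 (limma adjusted p = 0.00895) and the pro-apoptotic gene Pawr by 0.42 (adjusted p = 0.0274). Tnfrsf12a, the TWEAK receptor, which was named after its values were seen, fell by 0.35 (limma adjusted p = 0.0383). Bcl2a1d, a pro-survival relative of Bcl2 with near-identical gene copies that may share its probe, rose by 0.59 with DMF (limma adjusted p = 0.0358). Birc3, the ligase cIAP2, was detected on no array.

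Some of the genes above are also induced by ATF4 and CHOP, the factors of the amino acid and ER stress responses. Whether these factors had a part in the differences above was not tested. Of 6 ATF4 and CHOP genes tested, Trib3 and Chac1 rose with all 3 compounds both in 12 arrays and in 10. The shares of all genes called were 1.81%, 1.42% and 0.346% in the 12 and 10.8%, 11.1% and 8.42% in the 10. Trib3, a pseudokinase, read 9.84, 10.44 and 9.77 with CDDO-Im, 10.02, 10.08 and 10.00 with CDDO-Me, 10.47, 10.31 and 10.19 with DMF, and 8.16, 8.45 and 8.42 with DMSO. No treated array overlapped with DMSO, and Trib3 rose by 1.67, 1.73 and 2.01 in the 12 arrays (limma adjusted p = 0.00156, 0.00185 and 0.00125).

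Chac1, which degrades glutathione, rose by 1.17, 1.32 and 1.63 in the 12 arrays (limma adjusted p = 0.00301, 0.00202 and 0.00114). Atf4 itself had 0.33, 0.24 and 0.36 in the 10 arrays and passed with DMF (limma adjusted p = 0.0405). Ddit3, which encodes CHOP, had -0.06, 0.10 and 0.56 in the 10 arrays and was not called. Its highest array was DMSO replicate 1 at 10.03, against 7.68 and 8.10 on the other DMSO arrays.

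**Figure D4:**
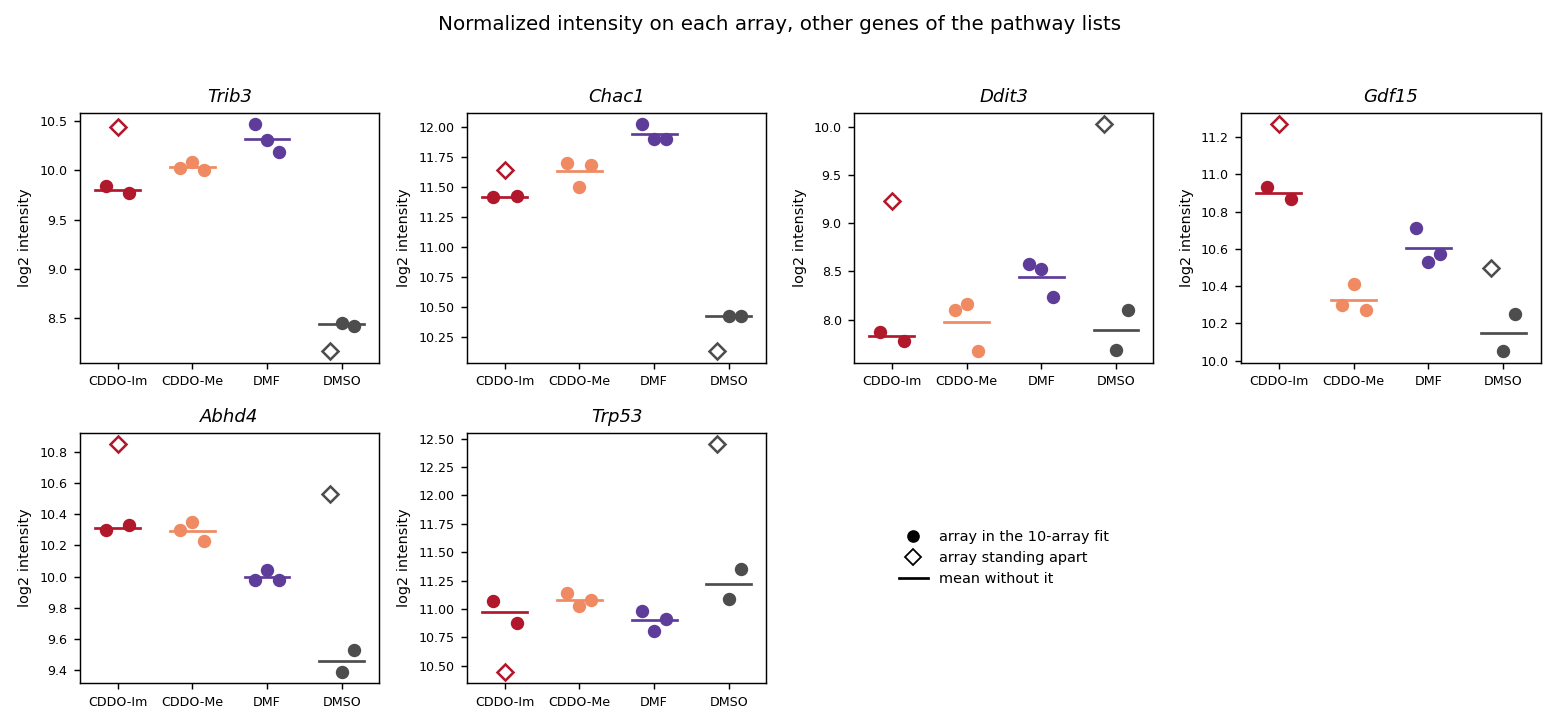
Normalized log2 intensity (vertical axis) on each of the 3 arrays per group for Trib3, Chac1, Ddit3, Gdf15, Abhd4 and Trp53. Open diamonds are DMSO replicate 1 and CDDO-Im replicate 2 and lines are group means without them. All treated arrays of Trib3 and Chac1 lie above all DMSO arrays, and DMSO replicate 1 is the highest array for Ddit3 and Trp53.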

How the data were processed

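RNA of 12 samples was labelled with biotin and hybridised to Illumina arrays, per the labels. The deposited intensities are mean bead signals that the GenomeStudio software (gene expression module 1.9.0) wrote out without normalization, per the file headers, with a detection p-value per probe and array that the authors' software computed against background probes. A deposited matrix of intensities normalized by the authors, whose normalization is not given in the sources used here, served only as an alternative after log2. Its columns ranked the probes as their own arrays did (Spearman rho 1) and had medians of 170.18 to 172.05. The array measures no read depth, and the number of arrays limits the precision.

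Samples were grouped by title. The series design text writes CDDO-Im beside 0.1 µM where titles and treatment protocol write CDDO-Me. Intensities were corrected with limma's normexp (offset 16), quantile normalized and put on the log2 scale. Probes detected at p under 0.05 on at least 3 arrays were kept, 19211 in all, and each of 13280 genes was read by its kept probe with the highest mean. Names were updated by Entrez number (29586 probes) or transcript accession (2759), and 12936 kept the array's name. Limma 3.58.1 in R 4.3.3 fitted group and chip to all 12 arrays (7 residual degrees of freedom, 5 with 10 arrays). Tests were two-sided, adjusted by Benjamini-Hochberg over all 13280 genes, and called at 0.05. The script was tested on simulated data. Alternatives covered background correction, normalization, probe filter and choice, chip, pairing, array weights and arrays left out. Array weights were estimated gene by gene because the REML estimate did not converge.

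The genes, lists and the sets of arrays left out were chosen with earlier results of these data known. Genes called in the fit of 12 or of 10 arrays are given array by array, the others by ranges and counts. Of each further list, up to 3 called genes with the largest differences per comparison are named, plus Trp53, Mdm4, Ddit3, Atf4, Sesn2, Birc3 and Nqo1. Replicate numbers were not used as a pairing, since not every same-numbered pair deviated together. No 2 arrays held identical values. A result on 1 gene of the further lists is not reported here.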

Additional observations from a re-analysis of the deposited data

How the results depend on the processing

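The number of the 28 genes called changed most with array weights and with the arrays in the fit. For CDDO-Im it was 1 in the fit of 12 arrays, 8 with 10 arrays, 7 when those 10 were processed again from the raw intensities, 12 with array weights, 2 each without background correction, with an offset of 50, with the deposited matrix, with probes detected on all arrays, without a chip term and with chip as a random block, and 0 each with median scaling, on chip 1 alone and with the 2 groups only. For CDDO-Me it was 0 in the fit of 12 arrays, 9 with 10 arrays, 10 when processed again, 11 with array weights, 2 on chip 2 alone, and 1 each without background correction, with an offset of 50, with the deposited matrix, without a chip term, with chip as a random block and with the replicate block. For DMF it was 0, then 4 with 10 arrays, 4 when processed again and 11 with array weights. Leaving out 1 array at a time gave 0 to 3 for CDDO-Im, 0 to 3 for CDDO-Me and 0 for DMF. With the replicate number as a block in place of the chip, Plk3 was called with CDDO-Im, Plk2 with CDDO-Me and 0 genes with DMF. Deviations from the group means correlated at a median r of 0.135 over 18 same-numbered pairs of arrays (-0.296 to 0.363, 10 over 0.1), against -0.0413 over 36 other pairs (7 over 0.1), so the numbers carry some shared deviation without pairing every array. Bcl2 with CDDO-Im turned from 0.06 to -0.60 with 10 arrays (limma adjusted p = 0.0187), -0.60 when processed again (0.0204), -0.49 with array weights (0.0103) and -0.64 without DMSO replicate 1 (0.0455), the range on leaving out 1 array being -0.64 to 0.52, and this followed the loss or downweighting of that array, whose weight was 0.0322. Plk3 with CDDO-Im stayed higher in all 31 alternatives, from 0.85 to 1.32, and was called in 26 (adjusted p = 8.09e-07 to 1). It was lost with median scaling, on chip 1 alone, with the 2 groups only, and without DMSO replicate 3 or CDDO-Im replicate 3. Over all 13280 genes the counts were 240, 189 and 46 for CDDO-Im, CDDO-Me and DMF with 12 arrays, against 1428, 1473 and 1118 with 10, 90, 80 and 22 with median scaling, 3633, 3124 and 3012 with array weights, 3, 27 and 1 with the 2 groups only, 292, 403 and 147 on chip 2 alone, and 0 for each on chip 1 alone, where both arrays that stood apart lie.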
